A study of Mus musculus with 72 samples.

Results

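The comparison described here was KO+AAV against KO in gastrocnemius muscle at 40 weeks of age. Its members were the 10 libraries of these 2 groups, 5 in each, of the 72 libraries in the series, taken by group, tissue and age from the sample labels. KO animals were male mice with a global deletion of Bmal1 (gene symbol Arntl), bred from heterozygous parents. KO+AAV animals carried the same deletion and were injected as neonatal pups with an AAV9 vector holding HA-tagged Bmal1 cDNA under CK6, a constitutive promoter active in most skeletal muscles but not in soleus. WT littermates of the same age, 5 libraries, gave a reference level. All muscles were taken at the same time of day, early in the light phase. Because KO mice die early, the 40-week KO animals are the survivors of their group. No vector control was sequenced at 40 weeks, so at that age the effects of the vector and of Bmal1 cannot be told apart. A control vector expressing GFP was sequenced at 10 weeks. Nothing in the labels says that libraries of a group came from separate litters or extraction days, so P values measure the spread between libraries. The limma P values and SEs pool that spread over all 34 gastrocnemius libraries in 6 groups. They do not measure the spread of the 10 compared libraries alone, for which a separate fit is given below.

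BMAL1 pairs with CLOCK or NPAS2 and activates genes through E-box elements. Among its targets are the Per and Cry genes, whose proteins repress the pair, the REV-ERB receptors Nr1d1 and Nr1d2, which repress Arntl, Clock, Npas2 and Nfil3, and the PAR bZIP factors Dbp, Tef and Hlf, which act on D-box elements. In skeletal muscle the clock also drives genes of contraction and of glucose and lipid use.

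The 10 libraries held between 9325122 and 13610317 reads on genes, with a median of 10482000 in KO and 12116697 in KO+AAV. Values are normalized counts, that is reads divided by 1 size factor per library. The 7 skeletal muscle marker genes summed to between 1295120 and 2781960 normalized counts in KO and between 1745820 and 2339280 in KO+AAV, and none of them differed at P under 0.01. The library labelled KO replicate 2 stood apart from the rest of its group: of 11159 genes with a mean above 50, 950 lay at least 2-fold beyond the other 4 KO libraries, against 2 to 130 in the other libraries of the comparison except KO+AAV replicate 2, which had 430. Sesn1, a stress-induced metabolic regulator, was at 11637 in KO replicate 2 against 352 to 462 in the other KO libraries, and Foxo1, an atrophy-related transcription factor, at 3331. The same 2 genes were also highest in KO+AAV replicate 2 within its group, at 1572 and 1402. Results that rest on KO replicate 2 are given with and without it.

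Arntl, the deleted and delivered gene, was not higher in KO+AAV by the gene-level count. It was at 381, 1039, 395, 312 and 308 normalized counts in KO replicates 1 to 5, at 298, 268, 317, 359 and 313 in KO+AAV, and between 480 and 608 in WT. The library labelled KO replicate 2 was above every WT library, and the other KO libraries overlapped with KO+AAV. Among the clock genes given below, KO replicate 2 was the lowest KO library for Per3, Bhlhe41, Hlf and Dbp. That library was the highest for Per1, Cry2 and Nfil3, and neither lowest nor highest for Nr1d2 and Npas2. The reason for the high Arntl count of KO replicate 2 was not tested. The difference was −0.48 on the log2 scale (exact permutation test, 252 arrangements, two-sided P = 0.0952), and −0.16 without KO replicate 2 (exact permutation P = 0.175). Leaving out KO replicate 4 or KO replicate 5 instead gave exact permutation P = 0.0317 with the lower mean in KO+AAV. WT exceeded KO+AAV by 0.86 (exact permutation P = 0.00794, the smallest that 5 against 5 can give). The table counts reads over the whole gene and does not separate transcripts of the vector from those of the deleted locus, so delivery cannot be read from this gene.

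Of 16199 genes with a mean normalized count above 5, 526 differed at P under 0.01 (3.25% of all genes tested, limma), the rule for a differentially expressed gene (DEG) that the study uses. Of these, 326 were higher in KO+AAV (2.01%) and 200 lower (1.23%). At a Benjamini-Hochberg adjusted P under 0.05, 42 genes remained (0.259%), 36 of them higher (0.222%) and 6 lower (0.037%). In 30 of the 42 the groups did not overlap, against 175 of all genes tested (1.08%; 0.623% higher and 0.457% lower). The 42 were chosen by P from these same libraries, so this share and the refits below are not independent evidence. Each of the 42 also passed P under 0.01 in the same direction in all 10 fits that left out 1 library, KO replicate 2 included. Without KO replicate 2 there were 513 DEGs and 44 genes past the adjusted threshold, 31 of them among the 42. The adjusted count was 75 without KO replicate 4 and 26 without KO+AAV replicate 4. Restricted to these 10 libraries, with no other group to share the estimate of spread, the fit gave 174 DEGs and 4 genes past the adjusted threshold. All 42 genes kept P under 0.01 in the same direction in those 10 libraries alone.

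On the repressor side of the clock loop all 8 genes tested were higher in KO+AAV, against 53% of all genes. Per1, Cry1 and Cry2, however, changed sign under other settings. Of these 8, 3 passed the test, against 2.01% of all genes called higher. Per3, a period gene, was the largest of these. It was at 9.63, 3.58, 18.4, 30.3 and 15.2 in KO replicates 1 to 5 and at 107, 168, 108, 160 and 95.9 in KO+AAV. Every KO+AAV library was above every KO library and below every WT library, which ranged from 268 to 433. The log2 fold change was 3.20 ± 0.35 (SE, n = 5 per group; limma adjusted P = 1.61e-06), and 2.80 without KO replicate 2.

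Bhlhe41, a basic helix-loop-helix repressor of the CLOCK-BMAL1 pair, was at 323, 96.7, 244, 498 and 501 in KO and at 749, 547, 605, 978 and 675 in KO+AAV. The groups did not overlap, and KO replicate 2 was the lowest. Its log2 fold change was 1.28 ± 0.31 (limma adjusted P = 0.0640), and 0.89 without KO replicate 2, where it still passed P under 0.01. Per2 rose by 0.80 ± 0.21 (limma adjusted P = 0.107). The Per2 groups overlapped, with 66.0 to 158 in KO and 128 to 242 in KO+AAV. Per2 was also higher with the GFP control vector at 10 weeks, at 51.8 to 79.3 in 3 libraries against 29.8 to 35.2 in 3 KO controls (0.96 on the log2 scale, not tested). The other repressors did not pass the test: Bhlhe40 differed by 0.31, Ciart by 0.79, Cry1 by 0.01 and Per1 by 0.01. Cry2, a cryptochrome, differed by 0.14 with all libraries and by 0.72 without KO replicate 2 (P under 0.01, limma adjusted P = 0.189), since that library was at 4957 against 604 to 808 in the other KO libraries. Per1, Cry1 and Cry2 changed sign under other settings, with Cry2 at −0.32 with edgeR.

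All 4 activator genes were lower in KO+AAV, against 47% of all genes tested. Of these 4, 1 passed the test, against 1.23% of all genes called lower, and 3 passed with DESeq2 and 3 with edgeR. Npas2, which can take the place of CLOCK as the partner of BMAL1, was at 270, 233, 307, 200 and 181 in KO and at 150, 132, 116, 136 and 168 in KO+AAV. Every KO+AAV library was below every KO library and above every WT library, which were at 17.2 to 41.5. Npas2 fell by 0.74 on the log2 scale (SE 0.23, limma adjusted P = 0.221). It lost its DEG call without KO replicate 3 (−0.64) and without KO+AAV replicate 3 (−0.68). Clock differed by −0.35 (limma adjusted P = 0.344), and did not pass P under 0.01, but it did with DESeq2, with edgeR, without KO+AAV replicate 2 (−0.41) and without KO replicate 5 (−0.48), the lowest of its group. Arntl2 differed by −0.49 (limma adjusted P = 0.616).

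Of the 4 nuclear receptors of the loop that were tested, 1 rose, Nr1d2, against 2.01% of all genes called higher. The others did not pass the test. Nr1d2, which encodes REV-ERB beta and lies on chr14:18204054-18239127, was at 169, 247, 181, 307 and 143 in KO and at 660, 1018, 500, 790 and 527 in KO+AAV. The lowest KO+AAV library was above the highest KO library, and all were below the WT libraries, at 1557 to 1856. The log2 fold change of Nr1d2 was 1.74 ± 0.19 (limma adjusted P = 9.39e-07). Nr1d1, its closest relative, was at 605 to 727 in KO, 640 to 1126 in KO+AAV and 2127 to 3356 in WT, a difference of 0.32 between KO+AAV and KO (limma adjusted P = 0.532). Rora differed by 0.24, and Rorb had too few reads to be tested.

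The PAR bZIP factors all rose at P under 0.01, against 2.01% of all genes called higher. Hlf was at 23.4, 12.5, 19.9, 25.0 and 31.7 in KO and at 151, 73.0, 86.5, 134 and 88.7 in KO+AAV, with no overlap. Its log2 fold change was 2.20 ± 0.27 (limma adjusted P = 1.25e-05). Dbp was at 85.3, 32.2, 75.1, 92.8 and 73.1 in KO and at 266, 115, 260, 475 and 235 in KO+AAV. The Dbp groups did not overlap and the fold change was 1.84 ± 0.31 (limma adjusted P = 0.00136). Exons of Dbp share 18% of their length with Sphk2 on the other strand, and the strand setting of the counting is not given in the sources used here. Tef rose by 0.40 ± 0.13 (limma adjusted P = 0.226) with overlapping groups and lost its call without KO replicate 3, KO+AAV replicate 2 or KO+AAV replicate 4. Nfil3, which competes with these factors for D-box elements, differed by −0.64 (limma adjusted P = 0.400) and by −0.43 without KO replicate 2, its highest library.

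**Figure D1:**
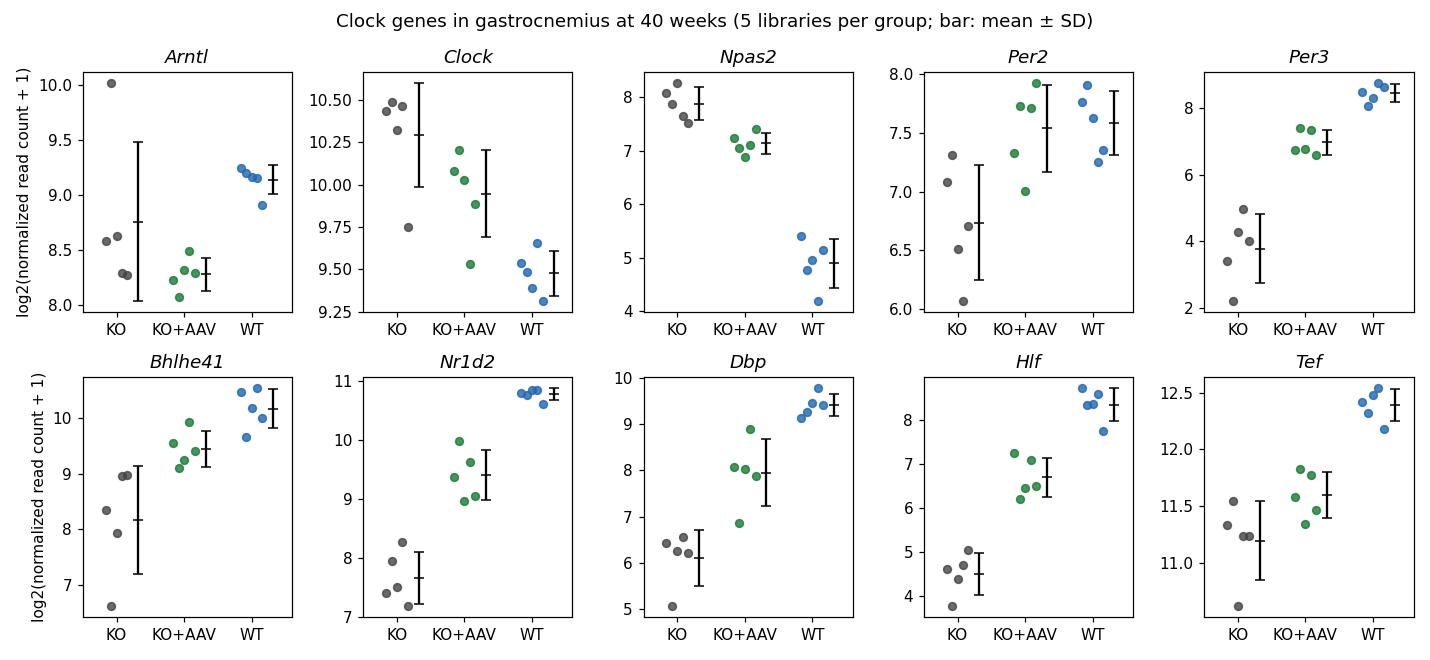
Normalized counts of 10 clock genes in each library at 40 weeks on a log2(normalized count + 1) axis, with points for the 5 libraries of KO, KO+AAV and WT and a bar for mean ± SD. Per3, Bhlhe41, Nr1d2, Dbp and Hlf show no overlap between KO and KO+AAV, Npas2 is lower in every KO+AAV library, and the high Arntl point in KO is replicate 2, at 1039 normalized counts.

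The upstream sequences below are shown because they hold the elements through which these factors act. The 250 bases before each RefSeq start site (GRCm38.p6) were searched on both strands for the E-box CACGTG and for the D-box TTATGTAA. Of 32851 windows, 6.02% held CACGTG and 0.819% held TTATGTAA. Of the 21 clock genes 18 were matched, and Per2 and Bhlhe40 were among those that were not. CACGTG was present before 5 of the 18, Bhlhe41, Ciart, Cry1, Per1 and Tef, which include genes that rose and genes that did not pass the test, and TTATGTAA was present before Per3 only. Of the 36 higher genes past the adjusted threshold 31 were matched, and CACGTG was present before 3 of them (9.68%, against 6.86% of all genes), 2610002M06Rik, Kcnab1 and Nkain1. Nkain1 is shown as an example because its values are given further on. A match describes these letters and is not evidence of binding. Capitals mark the elements, and bases inside a gene as GENCODE annotates it were left out.
Per3, 2 D-boxes, chr4:151044776-151044910, minus strand: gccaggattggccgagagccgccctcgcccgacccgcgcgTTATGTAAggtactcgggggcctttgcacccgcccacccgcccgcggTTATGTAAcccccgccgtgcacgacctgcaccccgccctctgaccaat
Bhlhe41, 1 E-box, chr6:145865559-145865613, minus strand: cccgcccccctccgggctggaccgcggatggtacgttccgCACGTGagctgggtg
Ciart, 3 E-boxes, chr3:95882252-95882384, minus strand: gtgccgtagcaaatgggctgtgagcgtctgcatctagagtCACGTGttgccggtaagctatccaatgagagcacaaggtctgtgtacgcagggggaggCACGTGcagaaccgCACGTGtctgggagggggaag
Nkain1, 1 E-box, chr4:130574174-130574230, minus strand: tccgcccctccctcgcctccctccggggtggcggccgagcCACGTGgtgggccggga
The 2 D-boxes of Per3 end 197 and 150 bases before the start site. Per3 had the largest fold change of the clock genes tested, but Nr1d2, Hlf and Dbp also rose and held neither element in the bases searched. A link between elements and fold changes was not tested. Ciart, with 3 E-boxes, did not pass the test (0.79 ± 0.48, limma adjusted P = 0.615), and its highest KO+AAV library, replicate 2, was at 73.0 against 15.9 to 22.9 in the other 4.

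Muscle genes named as clock outputs were tested next. The list held 15 genes, of which 5 rose, 1 fell and 9 did not pass the test (2.01% of all genes rose and 1.23% fell). It was drawn from genes that the study names for this muscle, so its direction is not independent evidence. Mylk4, a myosin light chain kinase of striated muscle on chr13:32700834-32783954, had the smallest P of all genes tested. It was at 143, 66.3, 53.6, 248 and 639 in KO replicates 1 to 5 and at 8291, 8347, 5598, 13675 and 7052 in KO+AAV. The groups were separated by several-fold, and WT was higher still, at 25750 to 40587. The log2 fold change of Mylk4 was 5.74 ± 0.43 (53.6-fold, limma adjusted P = 2.31e-10), and 5.45 without KO replicate 2. WT exceeded KO+AAV by 2.02 (limma adjusted P = 0.00161).

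Aebp1, a carboxypeptidase-like protein of the extracellular matrix, was at 179, 401, 322, 198 and 215 in KO and at 661, 1808, 612, 1437 and 775 in KO+AAV. Its groups did not overlap and the fold change was 1.93 ± 0.27 (limma adjusted P = 6.40e-05). Morn4 was at 50.9, 55.5, 16.9, 30.3 and 24.8 in KO and at 76.5, 74.4, 66.6, 117 and 70.7 in KO+AAV, again without overlap (1.26 ± 0.28, limma adjusted P = 0.0396). Car3, carbonic anhydrase of muscle and fat, rose by 1.25 (limma adjusted P = 0.0990) with overlapping groups, since KO replicate 3 was at 34988 against 7899 to 10779 in the other KO libraries. Asb15 rose by 0.70 (limma adjusted P = 0.122). Tead4, a transcription factor of the Hippo pathway, was the member that fell, by 0.59 (limma adjusted P = 0.0923), with 466 to 654 in KO and 316 to 457 in KO+AAV. Tead4 was also lower with the GFP vector at 10 weeks, at 192 to 251 against 262 to 336. Tcap, a Z-disc protein, differed by 0.47 with all libraries (limma adjusted P = 0.521) and by 0.75 without KO replicate 2 (P under 0.01, adjusted P = 0.139). Myod1, the myogenic factor, differed by 0.65 (limma adjusted P = 0.572) and by 0.02 without KO replicate 2, where it was at 78.8 against 467 to 990 in the other KO libraries.

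Other genes that rose were named by their P values. Nkain1, which encodes a protein that interacts with the sodium pump, was at 28.9, 14.3, 42.9, 49.97 and 71.7 in KO and at 161, 119, 124, 264 and 120 in KO+AAV. All KO+AAV libraries were above all KO libraries (2.01 ± 0.26, limma adjusted P = 4.14e-05). Atp8a1, a phospholipid flippase, was at 663, 353, 215, 762 and 434 in KO and at 1297, 2021, 1100, 1563 and 1605 in KO+AAV (1.75 ± 0.28, limma adjusted P = 0.00101). Casp12, a caspase of the endoplasmic reticulum, was at 23.3 to 66.2 in KO and 91.2 to 227 in KO+AAV (1.51 ± 0.25, limma adjusted P = 0.00103). None of these 3 genes overlapped between the groups. Others past the adjusted threshold without overlap were Tmem63a, a mechanosensitive channel (0.63), Cib2, a calcium-binding protein (1.20), Sorbs2, an adaptor of the Z-disc and focal adhesions (1.27), the noncoding RNA Snhg18 (1.004) and Tmem232 (2.72), which had at most 1 read in each KO library. Adamts1, a matrix protease, rose by 0.91 and Slc44a1, a choline transporter, by 0.65 (limma adjusted P = 0.0243 and 0.0347), both with overlapping groups.

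The glucose uptake and pyruvate entry list held 22 tested genes, of which 3 rose and none fell (2 fell without KO+AAV replicate 2). Of all genes, 2.01% rose and 1.23% fell. The list median log2 fold change was −0.07, against 0.016 over all genes tested. Of the 22, 14 were lower, against 47% of all genes. Slc2a3, the glucose transporter GLUT3, was at 4.13, 14.3, 3.07, 10.7 and 4.14 in KO and at 38.3, 88.4, 25.5, 97.7 and 32.4 in KO+AAV. The groups did not overlap, WT was at 252 to 540, and the log2 fold change was 2.79 ± 0.38 (limma adjusted P = 6.40e-05). Tbc1d1, a Rab GTPase-activating protein that restrains GLUT4 traffic until it is phosphorylated, was at 118, 125, 135, 150 and 182 in KO and at 480, 1098, 287, 529 and 538 in KO+AAV. Its fold change was 1.92 ± 0.29 (limma adjusted P = 0.000316), again without overlap. Tbc1d1 was also higher in KO muscle with the GFP vector at 10 weeks, at 68.7 to 211 in 3 libraries against 46.6 to 60.6 in 3 KO controls. Irs1, the insulin receptor substrate, passed P under 0.01 with all libraries (0.65, limma adjusted P = 0.304) but not without KO replicate 2 (0.33) or without any of 5 other libraries.

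Ighg2c, an immunoglobulin heavy-chain constant gene, rose from 1 read in all KO libraries together to 69 reads in KO+AAV. It was at 1.38 in KO replicate 1 and 0 in the other 4, at 4.78, 37.9, 19.97, 18.3 and 10.8 in KO+AAV, and at 71.9 to 247 in WT. The ratio of reads corrected for size factors was 59.6, with a 95% interval from 10.35 to 2388 (exact binomial, counting error only), and the limma adjusted P was 6.40e-05. Immunoglobulin constant genes are close copies of each other, so reads may be shared among them. Summed markers of B and plasma cells, 2 of 8 tested, were at 215 to 1365 in KO and 124 to 801 in KO+AAV, so that sum did not rise with Ighg2c. The 2 tested markers went in opposite directions, by 0.65 and −0.54, and neither passed the test.

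Fewer genes were lower, and by smaller amounts. Sh3bp5, a binding partner of the kinase BTK and of JNK at mitochondria, was at 1583, 2058, 1467, 1431 and 1443 in KO and at 1283, 855, 1062, 912 and 1076 in KO+AAV. It fell by 0.62 without overlap (SE 0.11, limma adjusted P = 0.00328). Gpt, the alanine aminotransferase that interconverts alanine and pyruvate, was at 1758, 1669, 1070, 1167 and 1416 in KO and at 988, 679, 906, 641 and 777 in KO+AAV. It fell by 0.82 (SE 0.17, limma adjusted P = 0.0235) toward the WT range of 262 to 501. Acad9, an assembly factor of complex I, fell by 0.39, the uncharacterized C030006K11Rik by 0.38 and the pseudogene Gm21926 by 0.71 (limma adjusted P between 0.0321 and 0.0472). None of these 3 overlapped between the groups. By the naming rule, Setdb2 (−0.94) and R3hcc1 (−0.37) followed, with P under 0.01 and no overlap (limma adjusted P = 0.0772 and 0.110). Setdb2 fell by 0.63 without KO replicate 2, where it was at 238 against 70.5 to 94.6.

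**Figure D2:**
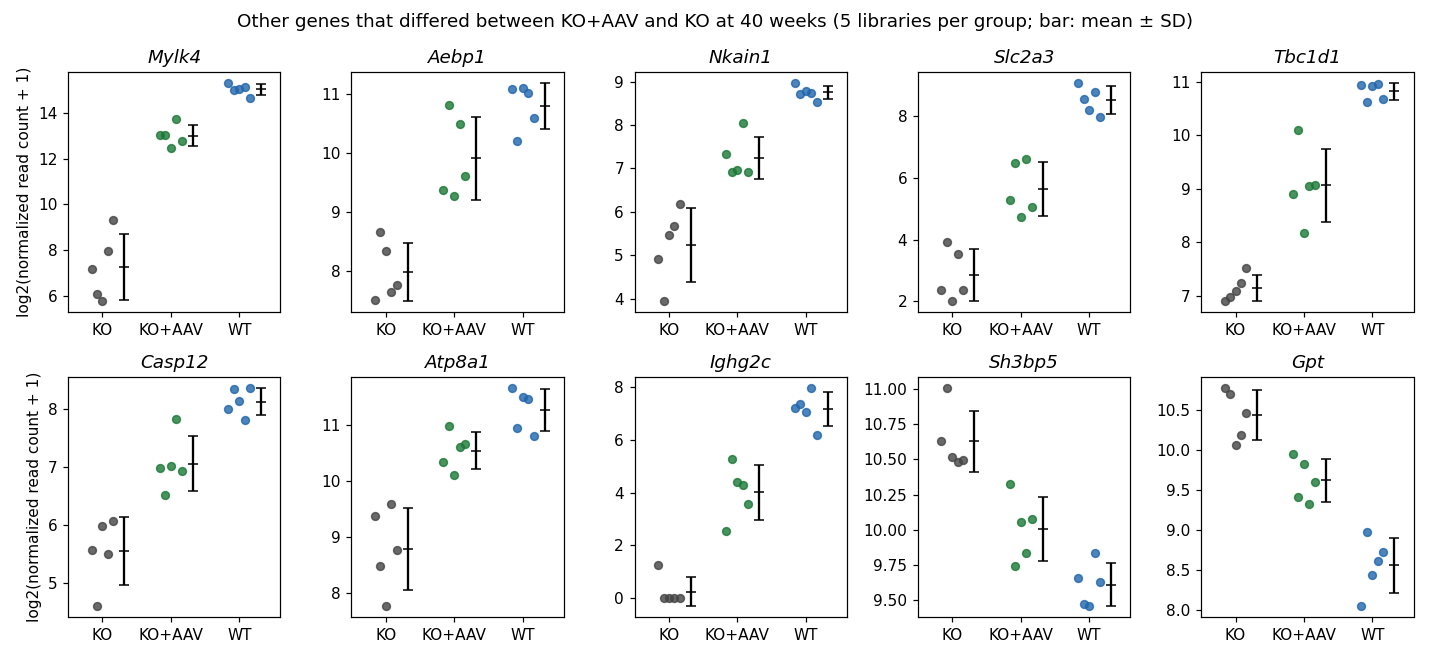
Normalized counts of 10 genes outside the core clock in each library at 40 weeks on a log2(normalized count + 1) axis, with points for the 5 libraries of KO, KO+AAV and WT and a bar for mean ± SD. In all 10 genes KO and KO+AAV do not overlap, which the naming rule required and which held for 1.08% of all genes tested. In KO+AAV 8 are higher and Sh3bp5 and Gpt are lower, and Mylk4 moves furthest, by 5.74 on the log2 scale.

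Of 25 tested genes of amino acid transport and breakdown none rose and 3 fell (Gpt, Got1 and Got2), against 2.01% and 1.23% of all genes. The aspartate aminotransferase Got1 fell by 0.85 (limma adjusted P = 0.257) and its mitochondrial counterpart Got2 by 0.50 (adjusted P = 0.270). Neither passed P under 0.01 without KO replicate 2 (limma adjusted P = 0.479 and 0.358), where Got1 was at 37238 against 7947 to 11890 in the other KO libraries. Gpt was then the 1 gene that fell, and the list median was 0.02, against −0.17 with all libraries.

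Nuclear genes of mitochondrial respiration were lower together by a small amount. Of 94 tested genes in 5 lists (tricarboxylic acid cycle, complexes I, III and IV and ATP synthase) 92 were lower in KO+AAV, against 47% of all genes tested. The median log2 fold change was −0.27. At P under 0.01, 16 fell and none rose, against 1.23% and 2.01% of all genes. None passed the adjusted threshold (smallest limma adjusted P = 0.180), and 4 were lower with no overlap, against 0.457% of all genes. At P under 0.05, 65 were lower, against 4.32% of all genes. By list, 4 of 18 genes of the tricarboxylic acid cycle, 3 of 36 of complex I, 2 of 9 of complex III, 3 of 15 of complex IV and 4 of 16 of ATP synthase fell. Uqcrb, a complex III subunit, was at 2953, 3245, 3108, 3094 and 3617 in KO and at 2899, 2226, 2583, 2350 and 2753 in KO+AAV. Its groups came close without overlapping, and it fell by 0.33 (limma adjusted P = 0.245). Sucla2, of succinyl-CoA synthetase, fell by 0.33 (limma adjusted P = 0.180), Dlst, of the 2-oxoglutarate dehydrogenase complex, by 0.34, the complex I subunits Ndufv3 and Ndufs3 by 0.32 and 0.26, Uqcrh by 0.31, Cox5b and Cox5a by 0.38 and 0.32, and Atp5e and Atp5g1 by 0.33 and 0.41. All 9 of these overlapped between the groups.

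The number of these genes that fell at P under 0.01 depended on single libraries. It was 14 without KO replicate 2, 1 without KO+AAV replicate 2, 2 without KO replicate 5, 3 without KO+AAV replicate 4, 4 without KO replicate 3, 7 without KO+AAV replicate 3 and 45 without KO+AAV replicate 1. It was 2 in the 10 libraries alone. The direction was kept: at least 90 of the 94 were lower in every one of these fits, with a median between −0.34 and −0.22.

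Slow fiber genes were counted in the same libraries, where 47% of all genes tested were lower in KO+AAV. All 10, among them the slow myosin gene Myh7 (−3.49), were lower in KO+AAV with a median of −1.53 and none passed the test. Their summed level ran from 11848 to 181152 in KO, from 4850 to 39632 in KO+AAV and from 1994 to 30372 in WT. KO+AAV replicates 2, 4 and 5 were below every KO library in slow fiber genes, and KO+AAV replicates 2 and 4 were the lowest of the 10 in mitochondrial genes. In bulk muscle, fewer fibers of a type and less RNA per fiber cannot be told apart, and the part of fiber composition in the mitochondrial result was not tested.

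**Figure D3:**
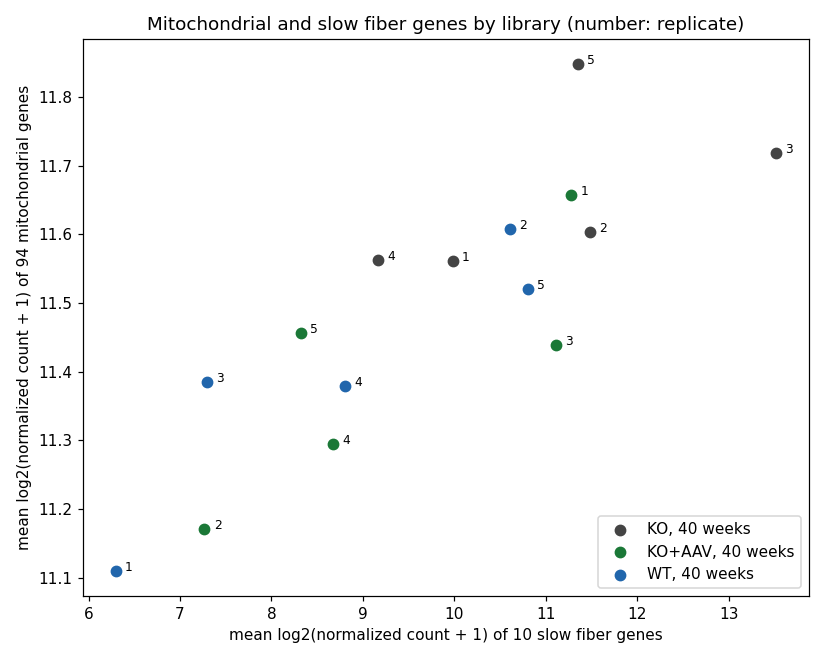
Mean log2(normalized count + 1) of the 94 mitochondrial genes (vertical axis) against that of the 10 slow fiber genes (horizontal axis), 1 point per library at 40 weeks, numbered by replicate and colored by group. KO+AAV replicate 2 is at 11.2 and 7.27 and KO replicate 3 at 11.7 and 13.5, and libraries low in slow fiber genes are mostly low in mitochondrial genes in all 3 groups.

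Other mitochondrial and metabolic lists gave fewer calls. All 12 tested genes encoded in the mitochondrial genome were lower and none passed the test. Of 76 mitochondrial ribosomal protein genes 65 were lower (47% of all genes tested were), 4 fell and 1 rose, against 1.23% and 2.01% of all genes. Without KO replicate 2, 7 fell and none rose, and without KO+AAV replicate 2, 2 fell and 1 rose. Among those that fell, Mrpl16 (−0.36) and Mrpl37 (−0.29) did not overlap between the groups. Of 30 genes of fatty acid uptake and oxidation 25 were lower and 1 fell, a share near that of all genes, the fatty acid transporter Slc27a1 (−0.55, limma adjusted P = 0.301), which lost its call without KO replicate 5 and without any of 4 other libraries. Of 16 genes of glycogen metabolism 14 were higher, against 53% of all genes, and none passed the test. Glycolysis and fast fiber genes had medians of −0.08 and 0.07 with no gene past the test.

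**Figure D4:**
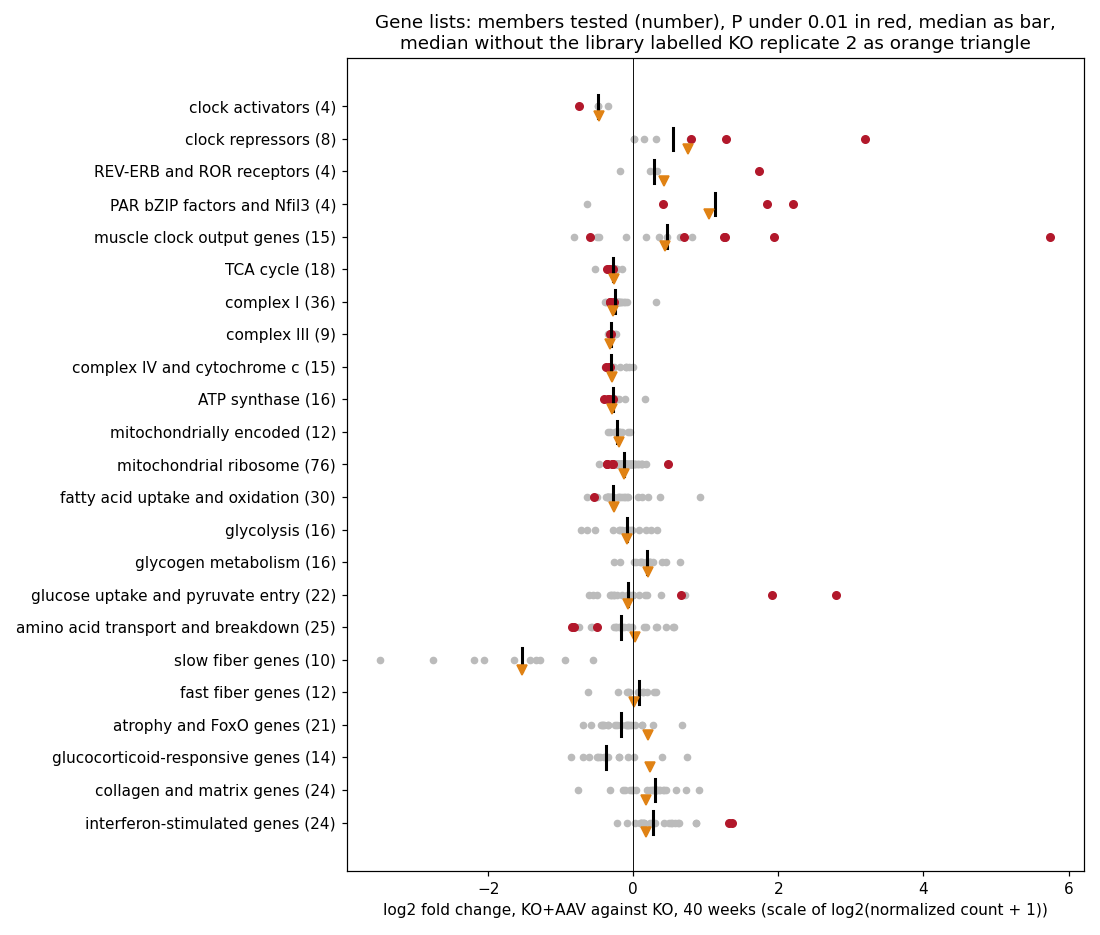
Log2 fold change of KO+AAV against KO at 40 weeks for each tested member of 23 gene lists (rows, number of members in brackets), with DEGs at P under 0.01 in red, the list median as a bar and the median without the library labelled KO replicate 2 as a triangle. The clock lists and the muscle output list spread furthest, the mitochondrial lists lie close together just below 0, and the medians of the FoxO and glucocorticoid lists lie on opposite sides of 0 with and without KO replicate 2.

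Stress, inflammation and tissue lists showed isolated members. Genes of atrophy and the FoxO factors had a median of −0.16 and glucocorticoid-responsive genes one of −0.38, with no DEG in either. Without KO replicate 2 the medians were 0.20 and 0.23, and 2 FoxO genes and 1 glucocorticoid gene were higher at P under 0.01. Without KO+AAV replicate 2 the medians were −0.53 and −0.60 with no DEG, so neither list has a direction that all libraries share. Among denervation and junction genes, Chrna1, the alpha subunit of the acetylcholine receptor, fell by 0.64 (limma adjusted P = 0.237). Chrna1 was also lower with the GFP vector at 10 weeks, at 207 to 216 against 265 to 329 (−0.50 on the log2 scale). Another list held 11 genes, most of them named by the study for this muscle at 10 weeks, a choice that is not independent evidence. In it Cdh4, R-cadherin, which the study places under cell adhesion, rose by 1.95 (limma adjusted P = 0.122). With DESeq2, with edgeR and in the 10 libraries alone no gene of that list, Cdh4 included, was higher at P under 0.01. The acyltransferase Agpat3 fell by 0.30 (limma adjusted P = 0.214). In that list 2 genes rose without KO replicate 2 and 3 without KO+AAV replicate 2. Chrna1 lost its call without any of 5 libraries, among them KO replicate 4, and Agpat3 without any of 4, among them KO+AAV replicate 3.

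Of 24 interferon-stimulated genes 22 were higher, against 53% of all genes tested, and 2 rose, against 2.01%. The 2 that rose were the ubiquitin-like protein Isg15 (1.32, limma adjusted P = 0.182) and its protease Usp18 (1.36, adjusted P = 0.293). Both were lowest in KO replicate 2 and neither passed P under 0.01 without it (limma adjusted P = 0.340 and 0.483). Without KO+AAV replicate 2, 5 of the 24 rose and the list median was 0.56, against 0.28 with all libraries. Likewise Phlda3, a p53 target, rose by 0.63, the small heat shock protein Hspb8 by 0.53 and the NF-kB subunit Relb by 0.54, while the apoptosis gene Diablo fell by 0.71 and the endothelial receptor Flt1 by 0.50. None of these 5 passed P under 0.01 without KO replicate 2. S100a9, a neutrophil gene, was at 2.76 to 28.7 in KO and 0 to 6.38 in KO+AAV and fell by 2.24 (limma adjusted P = 0.185), and it did not pass P under 0.01 without KO replicate 2. The summed level of 6 neutrophil markers, which includes S100a9 itself, was 22.1 to 73.4 in KO and 5.61 to 31.9 in KO+AAV. Of these 6 only 2 were tested, and the other one, Csf3r, differed by 0.005. The part of neutrophils in this result was not tested. In the lists for the thin filament and Z-disc, calcium channels, NRF2, MHC class II, complement, collagen and matrix, imprinted genes and the proteasome, no gene passed the test with all libraries. Without KO replicate 2, 2 genes of the thin filament and Z-disc, 1 of NRF2 and 1 of the proteasome rose. Without KO+AAV replicate 2, 4 genes of MHC class II, 2 of collagen and matrix and 1 of calcium channels rose and 1 of NRF2 fell.

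Whether the pattern was present at 10 weeks could be asked in separate libraries, 6 of KO and 7 of KO+AAV, sequenced at 2 sites. Of the 36 genes past the adjusted threshold and higher at 40 weeks, 35 were also higher at 10 weeks and 18 (50%) passed P under 0.01, against 1.52% of all genes that were higher at that threshold at 10 weeks. In a fit of the site used at 40 weeks alone, 34 were higher at 10 weeks and 12 passed, against 0.781% of all genes tested. Each fit held both ages and shared 1 estimate of spread per gene. The 10-week P values are therefore not independent of the choice at 40 weeks. Of the 6 lower genes 5 were also lower at 10 weeks and 3 passed, against 1.11% of all genes, but none passed with that site alone. Among the wider 526 DEGs, 42 of the 326 higher and 19 of the 200 lower passed at 10 weeks in the same direction. Per3 (2.99), Nr1d2 (1.96), Hlf (1.87), Dbp (1.75), Aebp1 (2.02) and Tbc1d1 (1.62) had fold changes at 10 weeks close to those at 40 weeks. Of the same 36 genes 18 were higher and 18 not higher in 10-week KO muscle with the GFP vector than in its KO control, with a median difference of 0.0023 on the log2 scale (3 libraries each, normalized separately). Per3, for example, was at 9.005 to 22.3 with the GFP vector and 7.25 to 21.8 in the control.

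Some named genes differed with the GFP vector without overlap. In the direction they took here, Per2 (0.96), Tbc1d1 (1.27) and Snhg18 (0.49) were higher with the GFP vector, and Tead4 (−0.39), Chrna1 (−0.50), Setdb2 (−0.34), Gm21926 (−0.34) and R3hcc1 (−0.17) were lower. In the opposite direction, Bhlhe41, Morn4, Cib2, Tef, Hspb8 and Relb were lower, and Got1, Got2, Slc27a1, Ndufs3, Uqcrb, Uqcrh, Atp5e, Atp5g1, Agpat3, Flt1 and S100a9 were higher. With 3 libraries each these differences were not tested. The share of all genes without overlap is not given for these libraries, so an effect of the vector on these genes cannot be read from them.

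The effect differed between the ages at P under 0.01 in 175 genes (1.08% of all tested) and at the adjusted threshold in Mylk4 alone (0.00617%). In all, 835 reached P under 0.05 (5.15%). edgeR and the fit with library weights gave no gene at the adjusted threshold and DESeq2 gave 5. Mylk4 was at 982 to 2845 (median 1924) in KO and at 5021 to 16462 (median 10130) in KO+AAV at 10 weeks, a log2 fold change of 2.41. KO+AAV levels at the 2 ages overlapped, whereas every 40-week KO library was below every 10-week KO library. The difference between ages was 3.34 (limma adjusted P = 0.0306), and 3.56 within libraries of 1 site.

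Among genes with an unadjusted difference, Hipk2, a homeodomain-interacting kinase, was 0.44 higher in KO+AAV at 40 weeks and 0.50 lower at 10 weeks (limma adjusted P of the difference = 0.0527). Usf3 and Sbno1 changed direction between the ages in the same way, by 0.60 and 0.40. In the other direction, Trib3, a stress-induced pseudokinase, was lower at 40 weeks (−1.46) and higher at 10 weeks (0.82) (limma adjusted P of the difference = 0.722). Fam124a, Rell1 and Cnksr3 also had lower effects at 40 weeks than at 10 weeks, by −1.29, −0.80 and −0.95. Nkain1, Casp12, Ripor2 and Morn4 had a larger effect at 40 weeks, by 1.01, 1.19, 1.46 and 1.18. None of these passed the adjusted threshold.

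**Figure D5:**
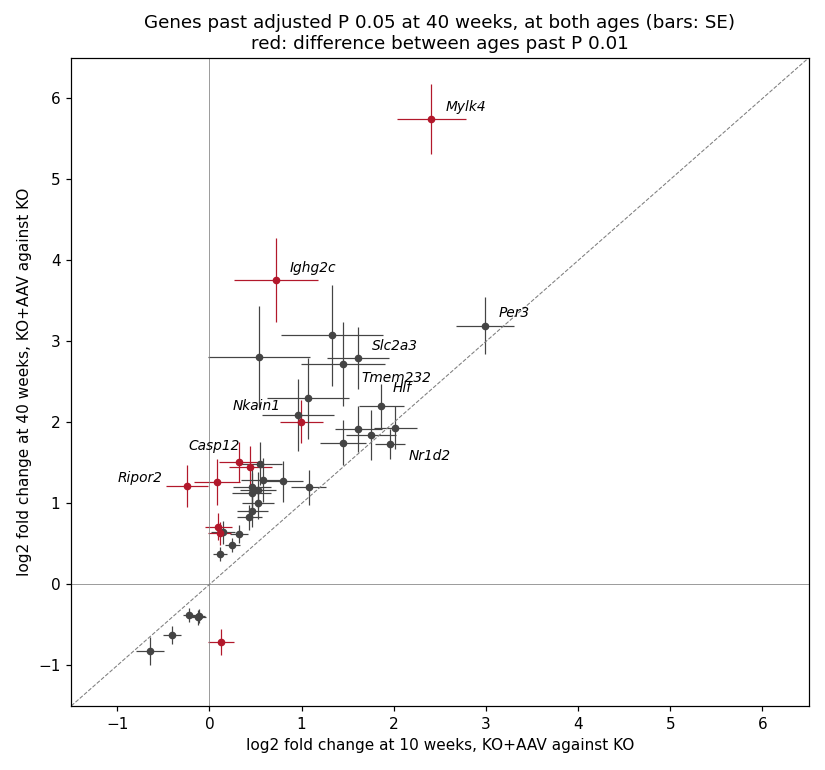
Log2 fold change of KO+AAV against KO at 40 weeks (vertical axis) against that at 10 weeks (horizontal axis) for the 42 genes past the adjusted threshold at 40 weeks, with bars for SE, the line of equal effect dashed and a difference between ages at P under 0.01 in red. Most genes lie in the same quadrant at both ages, Per3 and Nr1d2 lie near the line, and Mylk4 lies furthest above it at 2.41 and 5.74.

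WT libraries set the scale of these differences, with the caution that the 3 comparisons at 40 weeks share libraries. WT and KO differed in 3637 genes at P under 0.01 (22.5%) and WT and KO+AAV in 2364 (14.6%). For Per3 the WT to KO difference was 4.67 and the WT to KO+AAV difference 1.48, for Hlf 3.85 and 1.65, for Slc2a3 5.67 and 2.88, and for Gpt −1.88 and −1.07 (limma adjusted P of WT against KO+AAV at most 0.00492 for each). Per2 and Car3 did not differ detectably between WT and KO+AAV (0.04 and −0.08, limma adjusted P = 0.932 and 0.915). Adamts1 and Slc44a1 were higher in KO+AAV than in WT, by 0.81 and 0.60, and differed from KO to WT by 0.10 and 0.05.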

How the data were processed

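Poly(A) RNA-seq reads were aligned with HISAT2 to GRCm38 and counted per gene with HTSeq. The deposited values are signal: the authors scaled each library's read counts by its DESeq2 size factor. The annotation release and the strand setting are not given in the sources used here. All values were whole multiples of 1 read within 0.01, so reads were recovered for edgeR 4.0.16 and DESeq2 1.42.0 as alternatives. The members and gene lists were chosen with earlier results of these data known.

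The 34 gastrocnemius libraries (6 groups, 16199 of 55401 genes with a mean above 5) were fitted with limma 3.58.1 and its intensity trend on log2(normalized count + 1), with sequencing site as covariate. All 40-week libraries came from 1 site. DEGs had P under 0.01 (two-sided), and Benjamini-Hochberg adjustment ran over all genes tested. Fold changes are on this scale, which understates those of low genes. Arntl was tested by exact permutation. The naming rule took the clock list members, the 12 smallest P values per direction without overlap (adjusted P first), the 3 smallest per list, the 5 smallest per direction for the difference between ages, and genes the study names, of which a part is printed. Filters, pseudocount, tools, library sets, library weights, a replicate block and single libraries were varied. The fits were tested on simulated data. Coordinates are from GENCODE and sequences from RefSeq. The 10-week GFP libraries, normalized in a separate table, were not tested. Intervals and floors cover counting error only. Some genes that the naming rule took are not reported here.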

Additional observations from a re-analysis of the deposited data

Results flagged for a closer look

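In 168 sets of 5 libraries (each named gene in KO and in KO+AAV at 40 weeks), 19 had a library far from the other 4 by Dixon's criterion, where chance flags about 1 in 20 sets, or 8.4 here. Of the 19, 11 were KO replicate 2. It was the highest for Arntl at 1039, Per1 at 3768, Cry2 at 4957, Nfil3 at 2894, Sh3bp5 at 2058, Setdb2 at 238, Got1 at 37238 and Fam124a at 154 normalized counts, and the lowest for Dbp at 32.2, Irs1 at 471 and Usp18 at 0. KO+AAV replicate 2 was the highest for Cry2 at 2515 and Ciart at 73.0. The rest were Clock in KO replicate 5 (lowest, 862), Morn4 in KO+AAV replicate 4 (highest, 117), Car3 in KO replicate 3 (highest, 34988), Ighg2c in KO replicate 1 (highest, 1.38, which is 1 read), Mrpl16 in KO replicate 5 (highest, 810) and Sorbs2 in KO replicate 3 (lowest, 175).

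The effect of KO+AAV against KO differed between 40 and 10 weeks at limma P under 0.01 in 18 named genes. This count was set in part by the naming rule, which took the 5 smallest P values of this difference in each direction, and over all genes tested 1.08% passed. The difference, as the effect at 40 weeks minus that at 10 weeks on the log2 scale, was positive for Mylk4 (3.34), Ighg2c (3.04), Ripor2 (1.46), Casp12 (1.19), Morn4 (1.18), Nkain1 (1.01), Hipk2 (0.94), Asb15 (0.72), Usf3 (0.60) and Sbno1 (0.40). It was negative for S100a9 (−2.90), Trib3 (−2.28), Fam124a (−1.29), Setdb2 (−1.08), Cnksr3 (−0.95), Gm21926 (−0.83), Rell1 (−0.80) and R3hcc1 (−0.44). After adjustment over all genes Mylk4 alone passed.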

How the results depend on the processing

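Of 69 named genes that passed P under 0.01, none reversed under any of 23 settings, 32 kept their call throughout and 37 lost it under at least 1 setting, 15 of them without KO replicate 2, 27 in the 10 libraries alone and 24 with the replicate block. The 526 DEGs became 174 in the 10 libraries alone, 186 in these without KO replicate 2 (chosen after seeing the data), 295 with the 15 libraries at 40 weeks and 823 with no filter. All 526 kept their direction in the 10 fits that left out 1 library (358 to 716 DEGs), and 163 kept P under 0.01 in every one. The 42 genes past the adjusted threshold became 4 in the 10 libraries alone, 4 in these without KO replicate 2, 13 with 15 libraries, 24 with library weights and 79 with DESeq2, and ranged from 26 to 75 with 1 library left out. The 16 mitochondrial genes that fell became 2, 3 and 5 with these 3 sets of libraries and 2 with library weights, and ranged from 1 to 45 with 1 library left out. The 175 genes that differed between ages became 89 with libraries of 1 site and 315 with no filter, and ranged from 153 to 286. At the adjusted threshold, 1 gene became 5 with DESeq2, 2 with a mean above 50 and 0 with edgeR, libraries of 1 site, library weights, no filter or no site term, and ranged from 0 to 2. The cause of these changes was not tested.

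Replicate numbers are shared between KO and KO+AAV, but same-numbered libraries deviated together in 3 of 5 pairs (r above 0.1), and 2 of 5 libraries in each group correlated best with their own number, so the numbers were not taken as pairs. With the replicate block, the 10 libraries gave 306 DEGs, 7 genes past the adjusted threshold and 6 mitochondrial genes that fell, Nfil3 passed P under 0.01 (−0.64), and Arntl differed by −0.48 (exact sign permutation P = 0.25, where 0.0625 is the smallest possible). Arntl ranged from −0.60 to −0.16 with 1 library left out.

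Per1, Cry1, Cry2 and Rora, which did not pass the test, changed sign. Per1 was at −0.55 with DESeq2 and with edgeR and from −0.33 to 0.70 with 1 library left out. Cry1 was at −0.12 in the 10 libraries without KO replicate 2, −0.014 with DESeq2, −0.021 with edgeR, −0.027 with library weights and from −0.12 to 0.078 with 1 library left out. Cry2 was at −0.32 with edgeR and from −0.15 to 0.72, and Rora from −0.074 to 0.57. A gene with 3 reads in a library is at 3.33 to 5.37 normalized counts, which limits Ighg2c, Tmem232 and S100a9. Slc2a3 in KO replicates 1, 3 and 5 and Per3 in KO replicate 2 were also at or below 3 reads, which limits their fold changes.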

Other observations

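Markers of other cell types were counted in the same libraries, where 53% of all genes tested were higher in KO+AAV. All 8 Schwann cell markers, all 7 adipocyte markers and all 5 satellite cell markers were higher in KO+AAV than in KO at 40 weeks, with median log2 fold changes of 0.74, 0.69 and 0.31, and none passed P under 0.01. Without KO+AAV replicate 2 the medians were 0.90, 1.13 and 0.51, and 1 adipocyte marker rose. The summed Schwann cell level overlapped, at 913 to 7538 in KO and 1111 to 5918 in KO+AAV. Of 9 endothelial markers 1 fell, Flt1, and none without KO replicate 2. Of 7 genes of MHC class II 6 were higher (median 0.93) and of 24 collagen and matrix genes 18 were higher (median 0.29), with none past the test. Without KO+AAV replicate 2 these medians were 1.45, with 4 genes past the test, and 0.63, with 2.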
